A study of Mus musculus with 28 samples.

Results

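Splicing factors, hnRNPs and RNA helicases were taken as the genes whose symbol starts with Hnrnp, Srsf, Snrp, Prpf, Sf3, U2af, Ddx or Dhx, with 1 symbol of this kind left out by the same rule. They were 92 of the 9135 genes that the array annotation names, on 112 of 16722 probes, and all 92 passed the filter of at least 5 values in each dose group, which 9076 genes passed. The samples were peripheral blood mononuclear cells (PB MNCs), the cells that a density gradient separates from most red cells and granulocytes, from female C57Bl6 mice 10 weeks old. There were 28 mice in 4 groups of 7: Normal mice, which were not irradiated, and 50cGy, 200cGy and 1000cGY mice, which were given 1 dose of 50, 200 or 1000 cGy of total body irradiation and bled 6 h later. RNA of each mouse was hybridized to its own array of long oligonucleotides together with a universal mouse reference RNA, and each value is the log2 ratio of the mouse's RNA to that reference. The ratio compares mice within 1 gene and gives no order of levels between genes.

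A pre-mRNA is spliced by small nuclear ribonucleoproteins (snRNPs), in which Sm proteins form a ring on the U1, U2, U4 or U5 RNA. U2AF and the SF3 proteins fix the branch site, SR proteins mark exons, and hnRNPs coat the transcript and often compete with SR proteins over which exons are kept. Helicases of the DEAD (Ddx) and DEAH (Dhx) families use ATP to rearrange RNA, and they drive the steps of splicing as well as ribosome assembly, RNA export, translation and the sensing of viral RNA. In lymphocytes, several of these proteins are known for controlling the exons of surface receptors, Hnrnpll and Hnrnpl with Ptprc (CD45) as the usual example.

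These genes were mostly lower in irradiated mice, and more so at the higher doses. At 50 cGy 6 of the 92 genes were called higher and 8 lower (limma, adjusted p under 0.05 over all 9076 genes), against a background of 8.03% of all tested genes higher and 3.89% lower. At 200 cGy 5 were higher and 55 lower, while 23.2% of all genes were higher and 20.3% lower. At 1000 cGy 13 were higher and 59 lower, with 40.8% of all genes higher and 25.9% lower. In percent, the members called lower were 8.7 at 50 cGy, 59.8 at 200 cGy and 64.1 at 1000 cGy. The count at 50 cGy moved with single arrays, as did the share over all genes. Called lower were 5 genes without Normal replicate 7 (2.99% of all genes), without 50cGy replicate 6 (2.61%) or without 50cGy replicate 7 (2.41%). Without 1000cGY replicate 5, 14 were called lower (5.02% of all genes). That array is in neither group compared, but the fit shares the spread between all 4 groups. The count also moved with the fit, again with the shares over all genes. Array weights gave 12 higher and 20 lower (15.5% and 8.89% of all genes). A fit of the 50cGy and Normal mice alone gave 8 higher and 17 lower (11.1% and 7.26%).

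**Figure D1:**
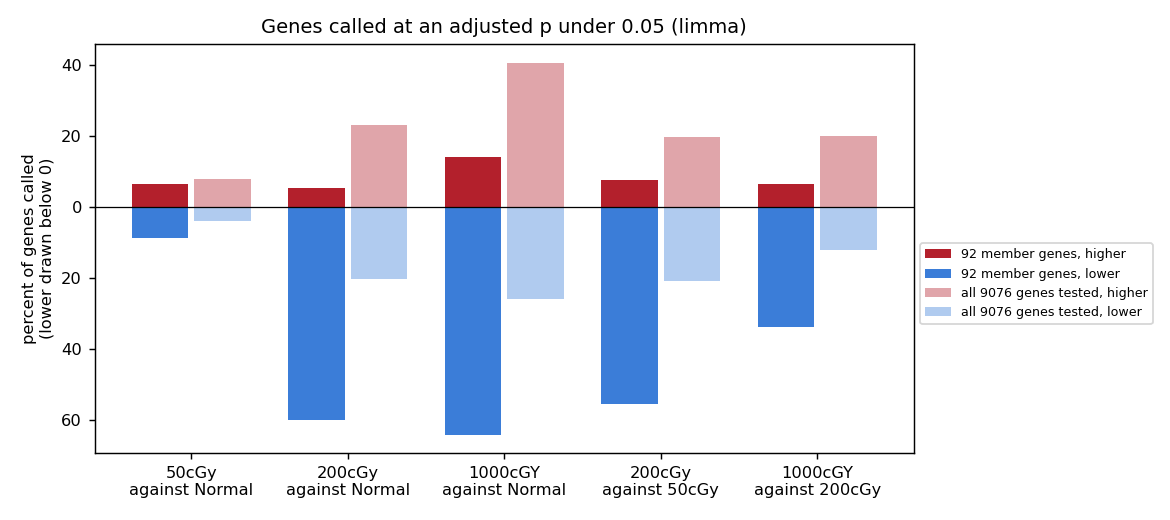
Percent of genes called higher (above 0) and lower (below 0) in each of the 5 comparisons, for the 92 member genes (dark bars) beside all 9076 tested genes (pale bars). At 1000cGY against Normal 64.1% of the members and 25.9% of all genes were called lower.

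The median log2 fold change of the 92 genes against Normal was -0.09, -0.33 and -0.51 in the order of the doses, beside -0.01, 0.04 and 0.17 over all genes. The 3 comparisons share the 7 Normal mice. The values rest on centring each array on its median: without centring the median over all genes at 1000 cGy was -0.08, and with quantile normalization 0.02. The distance of the members' median from that of all genes was -0.68 with centring, -0.69 without it and -0.54 with quantile normalization. Of the 59 genes called lower at 1000 cGy 58 were called under all 3 scalings (Snrpe was not), but of the 13 called higher only Ddx28, Hnrnpll and Srsf2 were. With arrays centred, the 4 group means of 40 members (43.5%) fell in the order of the doses and those of 4 (4.35%) rose in that order, beside 12% and 18.2% of all genes.

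Averaged over the 92 genes and set to 0 for the Normal mean, the level per mouse was 0 ± 0.03 (SD, n = 7) in Normal mice, -0.06 ± 0.05 at 50 cGy, -0.32 ± 0.08 at 200 cGy and -0.44 ± 0.07 at 1000 cGy. The highest mouse stood at -0.18 at 200 cGy and at -0.29 at 1000 cGy, and so every mouse of these doses was below the lowest Normal mouse, at -0.04. The mice of the 200cGy and 1000cGY groups overlapped, since 1 mouse given 200 cGy stood at -0.45 and 1000cGY replicate 5 was the highest of its group. For single genes, every 1000cGY mouse was below every Normal mouse in 43 of 92 genes and above in 4, while 12.9% of all genes were below and 14.6% above. At 200 cGy these counts were 37 below and 2 above (9.27% and 9.61% of all genes), and at 50 cGy 5 below and 4 above (1.82% and 3.28%).

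**Figure D2:**
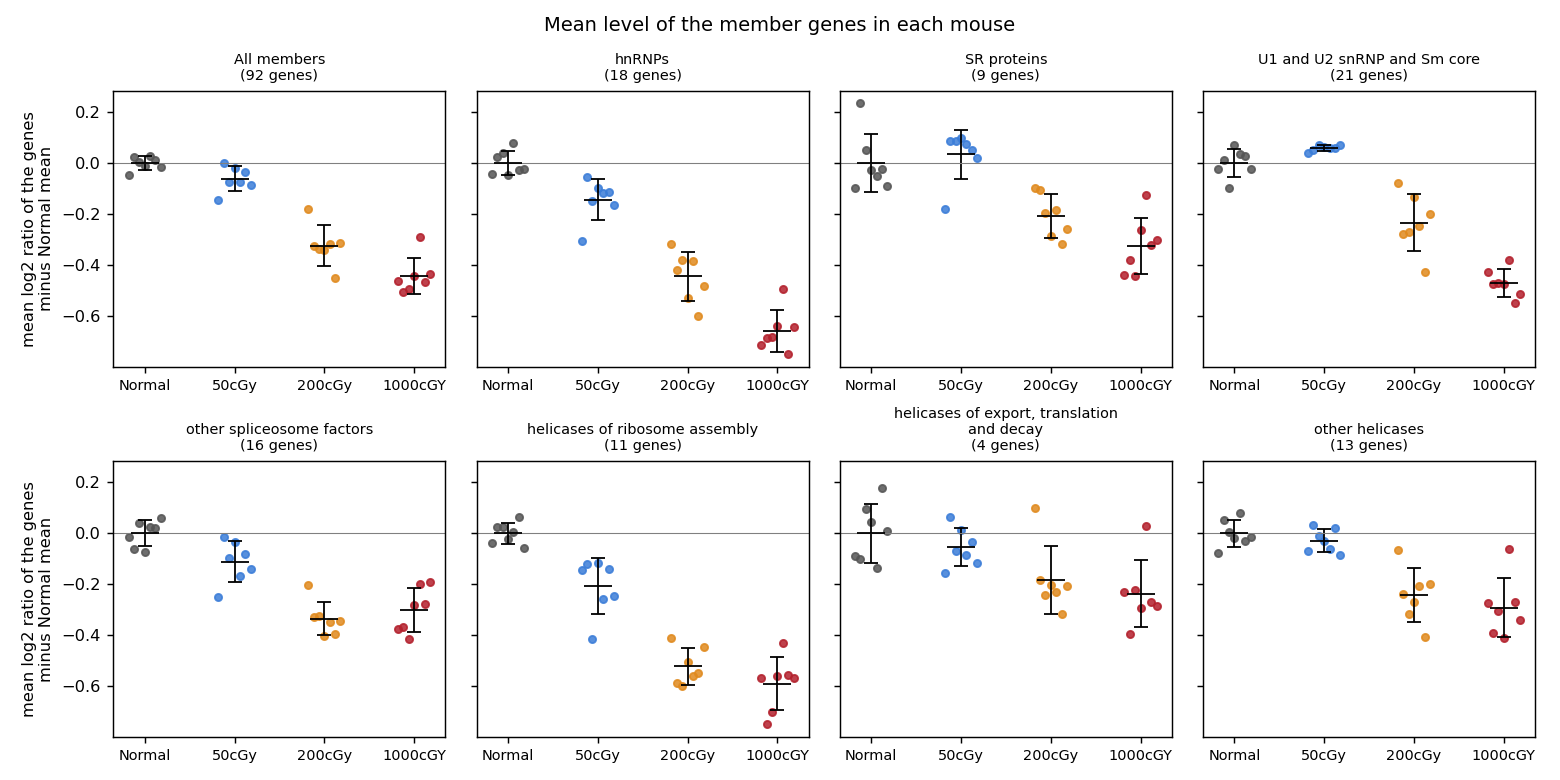
Mean log2 ratio of the genes in each mouse, minus the Normal mean (points), with the group mean and SD (bars, n = 7), for all 92 members and for the 7 groups by role. The hnRNP mean fell with dose to -0.66 at 1000 cGy, where the mean over all members was -0.44.

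The RNA of several lists of cell type markers moved with dose as well. Relative to the Normal mean, the 8 measured of 12 listed B cell markers averaged -0.25 at 50 cGy, -1.89 at 200 cGy (mice between -2.28 and -1.56) and -3.13 at 1000 cGy (between -3.37 and -2.84), and all 8 were called lower at the higher doses. Normal mice lay between -0.42 and 0.35 on this scale. The 5 measured of 10 neutrophil markers averaged -0.15, 2.26 (1.82 to 2.90) and 3.13 (2.73 to 3.60) at the 3 doses, with Normal mice between -0.61 and 1.30. All 5 were called higher at 200 and 1000 cGy, as were the 6 measured of 9 monocyte and the 6 of 8 platelet markers (mean 1.62 and 2.67 at 1000 cGy). Over all genes 23.2% and 40.8% were called higher at these doses, and 20.3% and 25.9% lower. The platelet list averaged 1.02 at 50 cGy (0.48 to 1.40), with 3 of its 6 genes called higher, beside 8.03% of all genes. Normal mice lay between -1.97 and 0.81 on that list, so the groups overlapped. The 7 measured of 12 T cell markers averaged 0.17, 0.06 and -0.18, and went different ways at 1000 cGy, where 2 were called higher and 3 lower (-1.13 to 0.40). The 3 measured of 8 NK and the 3 of 8 erythroid markers averaged 0.69 and 0.68 at 1000 cGy. Single NK genes there ran from 0.25 to 1.11 and erythroid genes from -0.24 to 1.19. Neutrophils are not mononuclear cells, and their genes were measured in this fraction all the same. In bulk RNA, fewer cells of a type and less RNA per cell cannot be told apart, and the part of these shifts in the values of the splicing and helicase genes was not tested.

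Prpf4b, the kinase that phosphorylates splicing proteins as the spliceosome matures, fell at each dose. Its log2 ratio (lowest, median, highest) was 0.51, 0.58 and 0.75 in Normal mice, 0.02, 0.30 and 0.33 in 50cGy mice, -0.32, -0.22 and -0.05 in 200cGy mice, and -0.65, -0.52 and -0.15 in 1000cGY mice. No irradiated mouse of any dose reached the lowest Normal mouse. The log2 fold change against Normal was -0.36 at 50 cGy (SE 0.08, adjusted p = 0.00272), -0.81 at 200 cGy (adjusted p = 1.34e-09) and -1.10 at 1000 cGy (adjusted p = 9.31e-13), a 2.15-fold lower level at the highest dose (limma). Its promoter window, from RefSeq for GRCm38.p6 (chr13:34875279-34875578, + strand), is shown because it holds 1 copy of CCGGAAG, the core that ETS-family factors bind, in capitals.
Prpf4b: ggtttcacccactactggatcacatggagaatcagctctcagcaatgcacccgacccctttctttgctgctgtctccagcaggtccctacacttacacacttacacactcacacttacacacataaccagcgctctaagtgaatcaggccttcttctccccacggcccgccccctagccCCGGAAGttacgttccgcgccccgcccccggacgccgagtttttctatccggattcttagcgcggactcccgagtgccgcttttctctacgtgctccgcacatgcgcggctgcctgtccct
Such windows, 250 bases before to 50 after the transcript start, were found for 84 of the 92 genes, and the first listed was used for the 18 genes that had several. CCGGAAG on either strand was in 30 of the 84 (35.7%), against 9.12% of all 27025 windows and 11.9% of the 17491 windows of protein-coding genes. It was in 23 of the 57 windows of genes called lower at 1000 cGy, in 3 of 10 of those called higher and in 4 of 17 of the rest. A match is a description of the sequence, and binding was not measured.

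Hnrnpab, which binds RNA and single-stranded DNA, was called lower at 200 and 1000 cGy. Its log2 ratio (lowest, median, highest) was -1.44, -1.33 and -1.12 in Normal mice, -1.50, -1.17 and -1.14 in 50cGy mice, -2.05, -1.73 and -1.48 in 200cGy mice, and -2.24, -2.12 and -1.72 in 1000cGY mice. The 50cGy mice lay within or close to the Normal range, and all mice at 200 and 1000 cGy lay below it. The log2 fold change was 0.08 at 50 cGy (adjusted p = 0.605), -0.43 at 200 cGy (SE 0.09, adjusted p = 0.000213) and -0.78 at 1000 cGy (adjusted p = 1.3e-08, limma). Whether its difference from Prpf4b at 50 cGy holds was not tested.

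At 1000 cGy the hnRNPs had the lowest median of the 7 groups by role under all 3 scalings, though differences between these groups were not tested. Of 18 genes 3 were called lower at 50 cGy, 13 at 200 cGy and 13 at 1000 cGy. Over all genes 3.89%, 20.3% and 25.9% were lower. The hnRNP medians were -0.13, -0.48 and -0.83 on the log2 scale. At 1000 cGy the median was -1.08 without centring and -0.88 with quantile normalization.

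Hnrnpa1, which blocks splice sites and shuttles mRNA out of the nucleus, had log2 ratios (lowest, median, highest) of -0.78, -0.59 and -0.43 in Normal mice, -1.13, -1.10 and -0.69 in 50cGy mice, -1.87, -1.75 and -1.68 in 200cGy mice, and -2.41, -2.19 and -1.83 in 1000cGY mice. At 50 cGy 1 mouse, replicate 1, overlapped the Normal range, and the ranges at 200 and 1000 cGy were below both. It fell by 1.53 at 1000 cGy (SE 0.08, adjusted p = 9.5e-15, limma), 2.89-fold, after -0.42 at 50 cGy (adjusted p = 0.00178) and -1.15 at 200 cGy (adjusted p = 1.48e-11).

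Hnrnpa2b1, its close relative, was the member with the largest fall at 50 cGy, by 0.64 (SE 0.10, adjusted p = 0.00013), and fell by 1.02 at 200 cGy and by 1.45 at 1000 cGy. Its lowest, median and highest values were 0.40, 0.47 and 0.73 in Normal mice, -0.40, -0.10 and 0.04 in 50cGy mice, -0.70, -0.50 and -0.38 in 200cGy mice, and -1.27, -1.01 and -0.45 in 1000cGY mice. All 21 irradiated mice stood below the Normal mice. Hnrnpr, a regulator of transcript splicing and transport, was not called at 50 cGy (-0.27, adjusted p = 0.11) and fell by 1.01 at 200 cGy and by 1.48 at 1000 cGy (SE 0.11, adjusted p = 6.92e-12). Hnrnph1, which binds runs of G, fell by 0.93 and 1.21 at these doses, and Hnrnpl, which represses CD45 exons, by 0.72 and 1.11.

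The exceptions in this family were few. Hnrnpll, which represses the variable exons of CD45 in activated lymphocytes, had lowest, median and highest values of -2.78, -2.44 and -2.28 in Normal mice, -2.68, -2.54 and -2.34 in 50cGy mice, -2.13, -1.76 and -1.68 in 200cGy mice, and -2.03, -1.78 and -1.24 in 1000cGY mice. The mice at 200 and 1000 cGy stood above all Normal and 50cGy mice. It rose by 0.74 at 200 cGy (SE 0.11, adjusted p = 1.65e-06) and by 0.80 at 1000 cGy (adjusted p = 1.74e-07), and by 0.56 and 0.75 at 1000 cGy without centring and with quantile normalization. Hnrnpul1 was called higher at 1000 cGy with centring (0.58, adjusted p = 0.0355) and under neither other scaling (0.33 and 0.41). Hnrnph2 was lower at 50 cGy (-0.34, adjusted p = 0.0475), where the call was lost without centring and without Normal replicate 3 (-0.32). Hnrnpc, which binds U-rich stretches, had -0.13, -0.14 and -0.11 at the 3 doses and Hnrnpa0 0.31, -0.09 and 0.07, and neither was called with centring. Without it Hnrnpc was called lower at 1000 cGy (-0.36), and with quantile normalization Hnrnpa0 was called higher at 50 cGy (0.42).

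Many of the windows before hnRNP genes held CCAAT. This box, which the NF-Y factor binds, was counted on both strands (as CCAAT or ATTGG): 12 of 17 hnRNP windows (70.6%) had 1 or more, against 44.8% of the windows of the other 67 members and 39% of protein-coding windows, and 7 (41.2%) had 3 or more, against 2.99% and 4.2%. The difference was not tested. These 4 windows, with the boxes in capitals, show hnRNP genes that were called lower at 1000 cGy (Hnrnpa1, Hnrnpl and Hnrnpab) and 1 that was not (Hnrnpc). They lie at chr15:103240147-103240446 (+ strand), chr7:28810640-28810939 (+ strand), chr11:51606832-51607131 (- strand) and chr14:52103972-52104271 (- strand) of GRCm38.p6, from RefSeq.
Hnrnpa1: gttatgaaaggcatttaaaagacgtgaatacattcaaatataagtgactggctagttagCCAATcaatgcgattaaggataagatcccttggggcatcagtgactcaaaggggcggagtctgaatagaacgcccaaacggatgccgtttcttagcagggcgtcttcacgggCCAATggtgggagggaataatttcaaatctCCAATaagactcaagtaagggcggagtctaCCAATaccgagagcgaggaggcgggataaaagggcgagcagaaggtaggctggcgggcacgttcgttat
Hnrnpl: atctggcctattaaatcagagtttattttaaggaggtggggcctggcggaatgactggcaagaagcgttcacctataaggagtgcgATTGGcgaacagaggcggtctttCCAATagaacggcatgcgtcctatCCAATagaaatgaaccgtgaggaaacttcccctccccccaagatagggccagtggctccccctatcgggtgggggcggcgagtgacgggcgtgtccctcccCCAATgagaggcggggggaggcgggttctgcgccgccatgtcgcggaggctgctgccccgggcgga
Hnrnpab: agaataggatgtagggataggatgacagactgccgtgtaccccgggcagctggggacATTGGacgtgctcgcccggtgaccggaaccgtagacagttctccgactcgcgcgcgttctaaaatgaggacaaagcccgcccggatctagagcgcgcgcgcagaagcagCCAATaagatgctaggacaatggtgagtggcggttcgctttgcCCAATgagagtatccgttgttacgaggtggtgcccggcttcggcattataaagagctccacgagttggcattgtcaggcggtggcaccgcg
Hnrnpc: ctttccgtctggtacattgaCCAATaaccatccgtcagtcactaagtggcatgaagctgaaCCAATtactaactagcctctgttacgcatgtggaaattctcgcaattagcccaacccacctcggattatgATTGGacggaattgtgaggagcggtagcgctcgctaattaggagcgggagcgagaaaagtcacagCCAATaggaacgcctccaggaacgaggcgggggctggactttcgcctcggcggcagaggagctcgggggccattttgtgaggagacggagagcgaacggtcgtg
Hnrnpa1, Hnrnpl and Hnrnpc hold 4 boxes and Hnrnpab 3. Without centring Hnrnpc was called lower as well (-0.36). Whether the count of boxes goes with the calls was not tested. Over all members CCAAT was in 42 of 84 windows (50%, against 37.9% of all windows), and by call at 1000 cGy in 45.6% of the genes called lower, 60% of those called higher and 58.8% of the rest. CCGGAAG was in 2 of the 17 hnRNP windows.

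**Figure D3:**
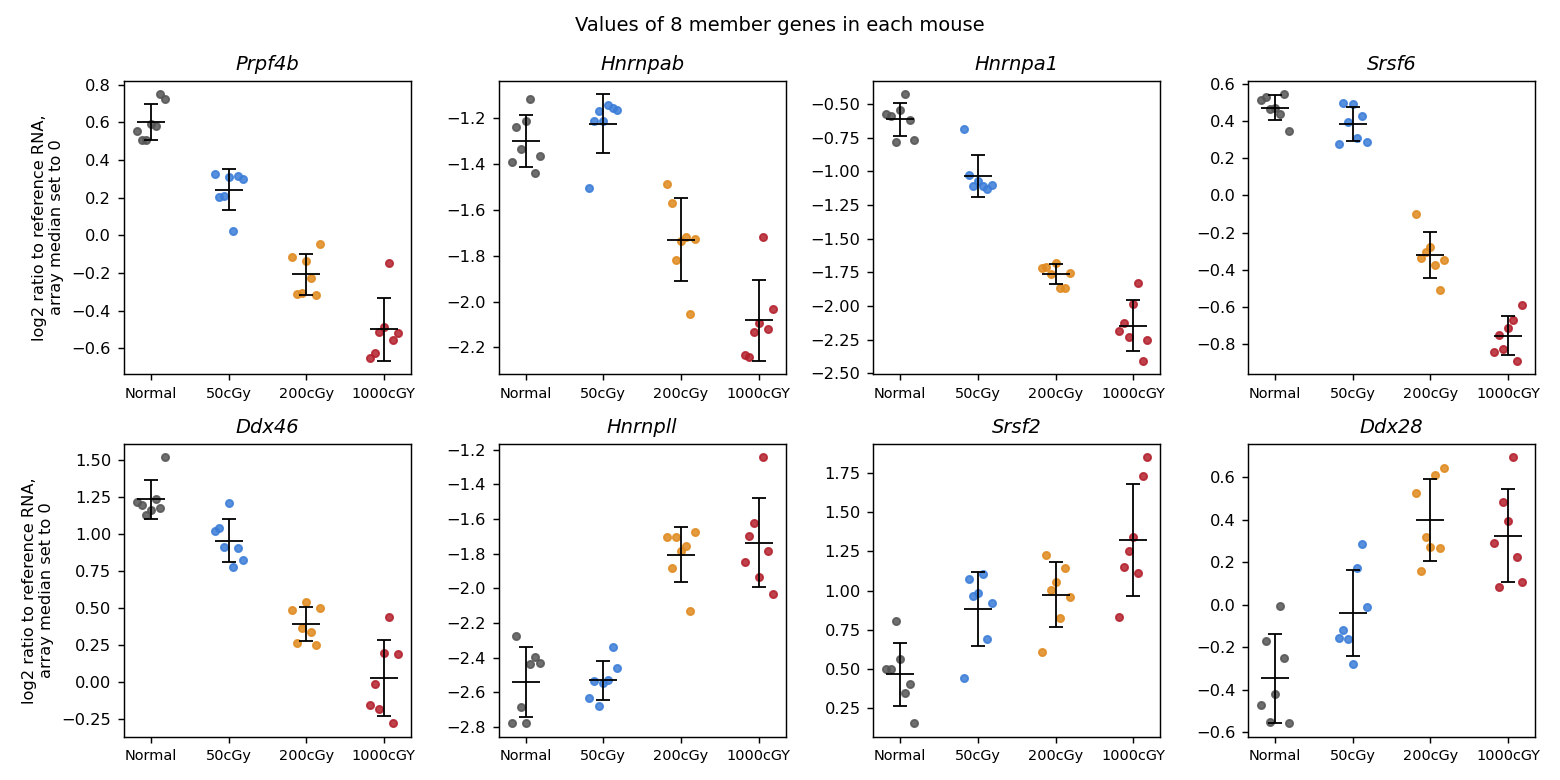
Log2 ratio to the reference RNA, with each array's median set to 0, in every mouse (points), with the group mean and SD (bars, n = 7), for 8 members. Prpf4b, Hnrnpab, Hnrnpa1, Srsf6 and Ddx46 were lower at 1000 cGy, and Hnrnpll, Srsf2 and Ddx28 higher, with Hnrnpll at a median of -1.78 at 1000 cGy and -2.44 in Normal mice.

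Of the 9 SR proteins 4 were called lower and 2 higher at 200 cGy, where 20.3% of all genes were lower and 23.2% higher. At 1000 cGy 6 were lower and 2 higher, with a median of -0.48, where 25.9% of all genes were lower and 40.8% higher. Srsf6, a regulator of alternative exons, had lowest, median and highest values of 0.35, 0.47 and 0.54 in Normal mice, 0.28, 0.39 and 0.50 in 50cGy mice, -0.51, -0.34 and -0.10 in 200cGy mice, and -0.89, -0.75 and -0.59 in 1000cGY mice. The ranges of the highest 2 doses overlapped neither each other nor those of the lower doses. It fell by 0.79 at 200 cGy and by 1.22 at 1000 cGy (SE 0.07, adjusted p = 7.92e-15, limma), after -0.09 at 50 cGy (adjusted p = 0.408).

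Srsf3, the SR protein that also links splicing to mRNA export, fell already at 50 cGy (-0.50, SE 0.08, adjusted p = 0.000229), by 0.78 at 200 cGy and by 0.99 at 1000 cGy. Srsf10, which represses splicing when it is dephosphorylated after heat shock, fell by 0.56 and 0.71 at the higher doses. Srsf2, which activates exons and stays in the nucleus, went the other way. Its lowest, median and highest values were 0.15, 0.50 and 0.80 in Normal mice, 0.44, 0.96 and 1.11 in 50cGy mice, 0.61, 1.00 and 1.23 in 200cGy mice, and 0.83, 1.25 and 1.85 in 1000cGY mice. The 1000cGY mice were all above the Normal mice, while the other doses overlapped them. Its log2 fold change was 0.42 at 50 cGy (adjusted p = 0.0431), 0.51 at 200 cGy (adjusted p = 0.00318) and 0.86 at 1000 cGy (SE 0.14, adjusted p = 3.99e-06), and the call at 50 cGy was lost without Normal replicate 7 (0.36). At 1000 cGy it was 0.61 without centring and 0.50 with quantile normalization, and called under both. Its oligonucleotides gave 0.66 (adjusted p = 0.00269) and 0.17 (adjusted p = 0.592, limma) at 50 cGy, and both were called higher at 200 and 1000 cGy. Srsf11, an SR-related protein, rose by 0.44, 0.43 and 0.54, but lost the calls at 200 and 1000 cGy without centring (0.33 and 0.29). Srsf5 was not called at any dose with centring (0.00, 0.11 and 0.06) or without it, but with quantile normalization it was called lower at 1000 cGy (-0.66), with the sign turned.

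Of the 21 proteins of the U1 and U2 snRNPs and the Sm core 3 were called higher and none lower at 50 cGy, where 8.03% of all genes were higher and 3.89% lower. At 200 cGy 1 was higher and 13 lower (23.2% and 20.3% of all genes). At 1000 cGy none was higher and 15 lower (40.8% and 25.9% of all genes). The medians in the order of the doses were -0.02, -0.31 and -0.44. At an unadjusted p under 0.05 limma put 4 lower at 50 cGy and none higher at 1000 cGy, and no scaling called one lower at 50 cGy. In U2af2, named after its values were seen, 1 array stood apart at 50 cGy (log2 fold change -0.26, not called). Replicate 1 was at 1.47 and the other 50cGy mice between 0.41 and 0.61, with the lowest Normal mouse at 0.63. The genes higher at 50 cGy were Sf3b5 (0.41, SE 0.10, adjusted p = 0.00631) and Sf3b4 (0.37, SE 0.09, adjusted p = 0.0116), which are parts of the SF3b complex, and Snrpe of the Sm ring (0.46, SE 0.14, adjusted p = 0.0326). Sf3b4 had lowest, median and highest values of -0.82, -0.60 and -0.40 in 50cGy mice and -1.19, -1.01 and -0.82 in Normal mice. Sf3b5 had -0.26, -0.07 and 0.09 in 50cGy mice and -0.89, -0.42 and -0.30 in Normal mice. In both genes every 50cGy mouse was above every Normal mouse, and at 1000 cGy neither was called (-0.17 for Sf3b4 and 0.07 for Sf3b5), though without centring Sf3b4 was called lower (-0.42). Snrpe was lower at 1000 cGy with centring (-0.32, adjusted p = 0.0485) and not with quantile normalization (-0.24).

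Snrpd2, another member of the Sm ring, had lowest, median and highest values of -0.70, -0.60 and -0.52 in Normal mice, -0.92, -0.77 and -0.69 in 50cGy mice, -1.40, -1.15 and -1.0 in 200cGy mice, and -1.90, -1.69 and -1.52 in 1000cGY mice. The groups at 200 and 1000 cGy overlapped neither each other nor the lower doses. It fell by 0.61 at 200 cGy and by 1.09 at 1000 cGy (SE 0.07, adjusted p = 5e-13). Snrpa1, which binds the U2 RNA, fell by 0.70 and 1.05, and U2af1, the subunit of U2AF that reads the AG of the 3′ splice site, by 0.34 and 0.72. Both had no 1000cGY mouse within the Normal range. Of the other Sm proteins, Snrpd3 (0.00, adjusted p = 1) and Snrpb (-0.14, adjusted p = 0.34) were not called at 1000 cGy, nor was Snrpc of the U1 snRNP (0.08, adjusted p = 0.42). Without centring Snrpb was called lower there (-0.39), and the others were not.

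**Figure D4:**
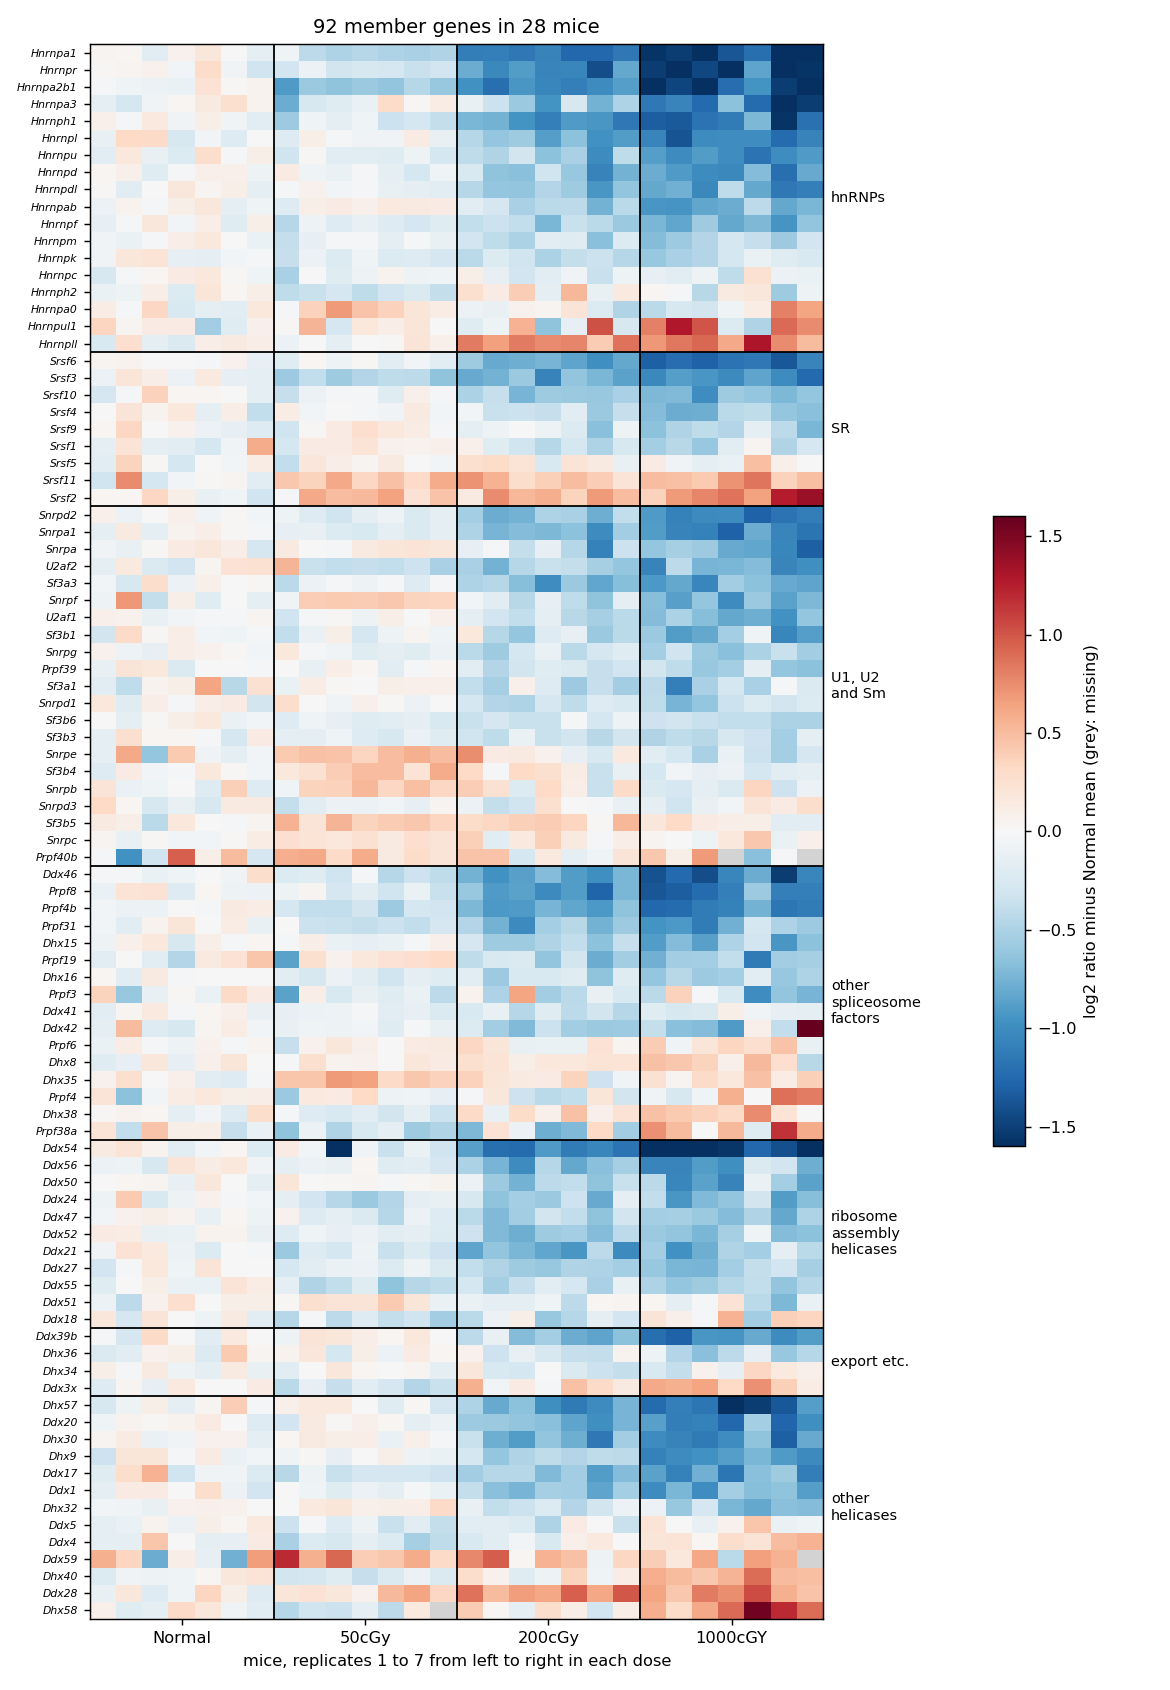
Log2 ratio of each of the 92 genes (rows, grouped by role and ordered within a group by the change at 1000 cGy) in each of 28 mice (columns, replicates 1 to 7 of each dose), minus the gene's Normal mean. Blue is lower and red higher, values past the ends of the scale take the end colour, and the 4 missing values are grey. Hnrnpa1, Hnrnpr and Hnrnpa2b1 are at the blue end at 1000 cGy, and 1 array stands out in Ddx54 (50cGy replicate 3, -2.20 as a log2 ratio).

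The other spliceosome factors were 16 proteins of the U4, U5 and U6 snRNPs or of the steps of assembly and catalysis, among them the helicases Ddx46 and Ddx42, which work with the U2 snRNP. Of these 8 were called lower and none higher at 200 cGy, and 7 lower and 4 higher at 1000 cGy, with medians of -0.33 and -0.26. Over all genes 20.3% were lower and 23.2% higher at 200 cGy, and 25.9% and 40.8% at 1000 cGy. In this group none was higher at 200 cGy at an unadjusted p under 0.05 either (limma). Beside Prpf4b, the largest falls were those of Ddx46, the helicase that brings the U2 snRNP to the branch site, and of Prpf8, the protein at the catalytic centre. Ddx46 had lowest, median and highest values of 1.13, 1.20 and 1.52 in Normal mice, 0.78, 0.91 and 1.21 in 50cGy mice, 0.25, 0.37 and 0.54 in 200cGy mice, and -0.28, -0.01 and 0.44 in 1000cGY mice. At 200 and 1000 cGy all mice were below the Normal mice and the 50cGy mice. It fell by 0.84 at 200 cGy and by 1.21 at 1000 cGy (SE 0.10, adjusted p = 2.01e-11), and Prpf8 fell by 0.90 and 1.11 (SE 0.11, adjusted p = 1.19e-09 at 1000 cGy).

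The 4 genes called higher at 1000 cGy were Prpf38a, a protein of the spliceosome (0.47, adjusted p = 0.0319), Dhx38, which acts before the second catalytic step (0.36, adjusted p = 0.00223), Dhx35 (0.25, adjusted p = 0.0297) and Dhx8, which releases the spliced mRNA (0.24, adjusted p = 0.0491). All 4 lost the call without centring, and there Dhx35 was at 0.00. Dhx35, whose protein is found in the catalytically active spliceosome, was higher at 50 cGy under all 3 scalings (0.47, SE 0.10, adjusted p = 0.00253), with lowest, median and highest values of -0.30, -0.17 and 0.07 in 50cGy mice and -0.82, -0.61 and -0.36 in Normal mice. Those groups did not overlap. Without Normal replicate 6, its call at 1000 cGy was lost (0.21). Ddx42, a U2-associated helicase named after its values were seen, was at 1.62 in 1000cGY replicate 7 and between -1.40 and -0.41 in the other 6 mice of the dose. With that array it was not called at 1000 cGy (-0.12, adjusted p = 0.712), and without it it fell by 0.49 (SE 0.13, adjusted p = 0.00144). At 200 cGy the same array moved the fitted spread, so that -0.51 had an adjusted p of 0.14 with it and 0.00114 without it.

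The 11 helicases of ribosome assembly were lower at 200 cGy and at 1000 cGy. At both doses 9 were called lower and none higher (none also at an unadjusted p under 0.05, limma), with medians of -0.48 and -0.56. Ddx28, a helicase of the mitochondrial ribosome that was called higher at both doses, was counted with the other helicases instead. Over all genes 20.3% and 25.9% were lower and 23.2% and 40.8% higher. Ddx54, a nucleolar helicase that also binds nuclear receptors, had lowest, median and highest values of 0.31, 0.57 and 0.75 in Normal mice, -2.20, 0.43 and 0.67 in 50cGy mice, -0.70, -0.58 and -0.34 in 200cGy mice, and -1.28, -1.06 and -0.72 in 1000cGY mice. At 50 cGy 1 array, replicate 3, was far below the other 6, which lay at 0.17 or above. The fold change at 1000 cGy, -1.58 (SE 0.26, adjusted p = 8.14e-06), was the largest fall of any member under all 3 scalings, and without that array its adjusted p was 2.47e-13, with -0.12 at 50 cGy (adjusted p = 0.475). Its promoter window (RefSeq, GRCm38.p6, chr5:120612880-120613179, + strand) holds CCGGAAG on the other strand, in capitals as CTTCCGG, as 5 of the 11 windows of this group hold that core.
Ddx54: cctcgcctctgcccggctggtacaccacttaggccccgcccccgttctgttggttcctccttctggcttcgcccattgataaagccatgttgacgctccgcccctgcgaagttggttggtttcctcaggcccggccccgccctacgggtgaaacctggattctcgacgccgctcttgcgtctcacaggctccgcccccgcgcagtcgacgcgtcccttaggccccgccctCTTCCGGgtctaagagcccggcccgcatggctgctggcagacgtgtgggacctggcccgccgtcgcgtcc
Ddx56, needed for the large ribosomal subunit, fell by 0.68 at 200 cGy and by 0.76 at 1000 cGy, Ddx47 by 0.47 and 0.59, and Ddx27 by 0.51 and 0.55. Ddx21, which works on ribosomal RNA in the nucleolus, was -0.77 at 200 cGy and -0.56 at 1000 cGy, and the step from 200 to 1000 cGy was not called (0.22, adjusted p = 0.121). Ddx18 and Ddx51 were not called at either dose with centring. Ddx18 was called lower at 200 cGy without it (-0.38) and with quantile normalization (-0.36), and Ddx51 at 1000 cGy without it (-0.41). In the direct comparison of 1000cGY with 200cGy mice limma called no gene of this group lower (1 at an unadjusted p under 0.05) and Ddx18 was higher (0.42, adjusted p = 0.0199), a call lost under the other scalings (0.27 and 0.27). With quantile normalization none was lower there either, and without centring 2 were. Over all genes 11.9% were lower and 20.1% higher in that comparison with centring.

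The 4 helicases of export, translation and decay went different ways. Ddx39b, which loads the export complex on spliced mRNA, fell by 0.58 at 200 cGy and by 1.01 at 1000 cGy (SE 0.10, adjusted p = 2.39e-09). Its lowest, median and highest values were -1.64, -1.29 and -1.15 in 1000cGY mice and -0.61, -0.36 and -0.04 in Normal mice, with no overlap. Ddx3x, an X-linked helicase of translation initiation, was lower at 50 cGy (-0.31, adjusted p = 0.0419) and higher at 1000 cGy (0.48, SE 0.10, adjusted p = 0.000184). Neither call was firm, since the first was lost without centring (-0.28) or without 50cGy replicate 6 (-0.29) and the second without centring (0.23) or with quantile normalization (0.19). The comparison of 200cGy with 50cGy mice, 0.54 (adjusted p = 0.00012), was called under all 3 scalings, and no 200cGy mouse was within the 50cGy range. Dhx36, which unwinds G-quadruplexes, fell by 0.40 at 1000 cGy (adjusted p = 0.00246), and Dhx34 of nonsense-mediated decay was called only without centring, as lower at 200 cGy (-0.29) and 1000 cGy (-0.27).

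Of the other 13 helicases 7 were called lower and 4 higher at 1000 cGy, with a median of -0.56, where 25.9% of all genes were lower and 40.8% higher. With quantile normalization 1 was higher, beside 29.3% of all genes. Dhx57, whose function is little known, had lowest, median and highest values of -0.13, 0.11 and 0.52 in Normal mice, -0.14, 0.15 and 0.29 in 50cGy mice, -1.0, -0.67 and -0.36 in 200cGy mice, and -1.74, -1.09 and -0.75 in 1000cGY mice. The 50cGy mice lay within the Normal range or just under it, and the mice of the higher doses below it. It fell by 0.83 at 200 cGy and by 1.30 at 1000 cGy (SE 0.13, adjusted p = 8.56e-10). Ddx20, which assembles snRNPs with the SMN complex, fell by 1.02 at 1000 cGy, and Dhx9, which unwinds RNA and DNA in transcription, by 0.94.

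Ddx28, a helicase of the mitochondrial ribosome, had lowest, median and highest values of -0.56, -0.42 and -0.01 in Normal mice, -0.28, -0.12 and 0.29 in 50cGy mice, 0.16, 0.32 and 0.64 in 200cGy mice, and 0.08, 0.29 and 0.69 in 1000cGY mice. All mice at 200 and 1000 cGy were above the Normal mice. It rose by 0.75 at 200 cGy (SE 0.11, adjusted p = 3.41e-06) and by 0.67 at 1000 cGy (adjusted p = 7.49e-06), where it was 0.42 without centring and 0.64 with quantile normalization. Dhx58 (LGP2), a regulator of the sensing of viral RNA, was higher at 1000 cGy (0.86, SE 0.15, adjusted p = 1.53e-05), but at 1.75 to 3.00 in 1000cGY mice and 1.27 to 1.76 in Normal mice the groups overlapped, and with quantile normalization it was 0.19 and not called. Dhx40 was higher at 1000 cGy with no overlap (0.56, SE 0.09, adjusted p = 3.73e-06), and was not called with quantile normalization (0.09). Ddx4, a germ cell helicase, was lower at 50 cGy (-0.33, adjusted p = 0.0316), a call lost without Normal replicate 3 (-0.26), and higher at 1000 cGy (0.28, adjusted p = 0.0149), where quantile normalization gave -0.07. Ddx5, a partner of Ddx17, was not called with centring (-0.23, -0.18 and 0.06), but quantile normalization called it lower at 200 cGy (-0.50) and at 1000 cGy (-0.58), and without centring it was called lower at 200 cGy (-0.28). Its relative Ddx17 fell by 0.62 at 200 cGy and by 0.89 at 1000 cGy.

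More members were called between 50 and 200 cGy than between 200 and 1000 cGy. In 200cGy against 50cGy mice 7 members were higher and 51 lower, with a median of -0.30, when 19.7% of all genes were higher and 20.7% lower. In 1000cGY against 200cGy mice 6 were higher and 31 lower, with a median of -0.18, when 20.1% of all genes were higher and 11.9% lower. The second count moved with single arrays, as did the shares over all genes. Without 200cGy replicate 1, 20 were lower (8.9% of all genes), and without 200cGy replicate 6, 11 were higher (24%). It moved with the scaling too, to 3 higher and 48 lower without centring (10.5% and 20.5% of all genes). With quantile normalization 1 was higher and 27 were lower (9.49% and 12.2%). The hnRNPs gave 11 of the 31, among them Hnrnpa1 (-0.38, adjusted p = 0.00168), Hnrnpr (-0.47, adjusted p = 0.00305) and Hnrnpa3 (-0.71, adjusted p = 0.00127). The U1, U2 and Sm group gave 8, the SR proteins 4 and the ribosome assembly helicases none. Groups that did not overlap were found in 29 members below and 3 above for 200cGy against 50cGy (9.85% and 8.87% of all genes) and in 5 below and 1 above for 1000cGY against 200cGy (1.92% and 1.87%). The 5 were Dhx9, Hnrnpl, Snrpd2, Srsf6 and Ddx54, and the adjusted p of Ddx54 was 0.136.

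Splicing genes that the symbol rule does not take also fell with the higher doses, but moved less as a list. Of 74 listed genes 64 were measured, and 4 were lower and 2 higher at 50 cGy, 26 lower and 3 higher at 200 cGy, and 36 lower and 8 higher at 1000 cGy. In dose order, genes called lower made up 6.25%, 40.6% and 56.2% of this list, beside 3.89%, 20.3% and 25.9% of all tested genes. Genes called higher made up 3.12%, 4.69% and 12.5% of it, beside a background of 8.03%, 23.2% and 40.8%. The list had a median log2 fold change of -0.02, -0.21 and -0.30 in the same order. The difference from the 92 genes was not tested.

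Where a gene had several oligonucleotides, they did not always give the same direction. Of the 16 genes with more than 1, 3 had oligonucleotides called in opposite directions at 1000 cGy. Hnrnpk, a DNA- and RNA-binding cofactor of p53, had 4, of which 3 fell (by 0.54, 0.66 and 0.76) and 1 rose (0.58, SE 0.18, adjusted p = 0.00527), so that its average of -0.34 describes no single one. Sf3b3 had 1 that fell by 0.96 and 1 at 0.21 (adjusted p = 0.0245). Snrpd1 of the Sm ring had 2 that fell (by 0.94 and 0.80) and 1 that rose (0.52, adjusted p = 0.0032). In Ddx27 both were below Normal, -0.88 and -0.22, and the second was not called (adjusted p = 0.0666). Whether these oligonucleotides detect different transcripts or other genes of the families was not tested, and the same holds for near-identical copies such as processed pseudogenes.

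**Figure D5:**
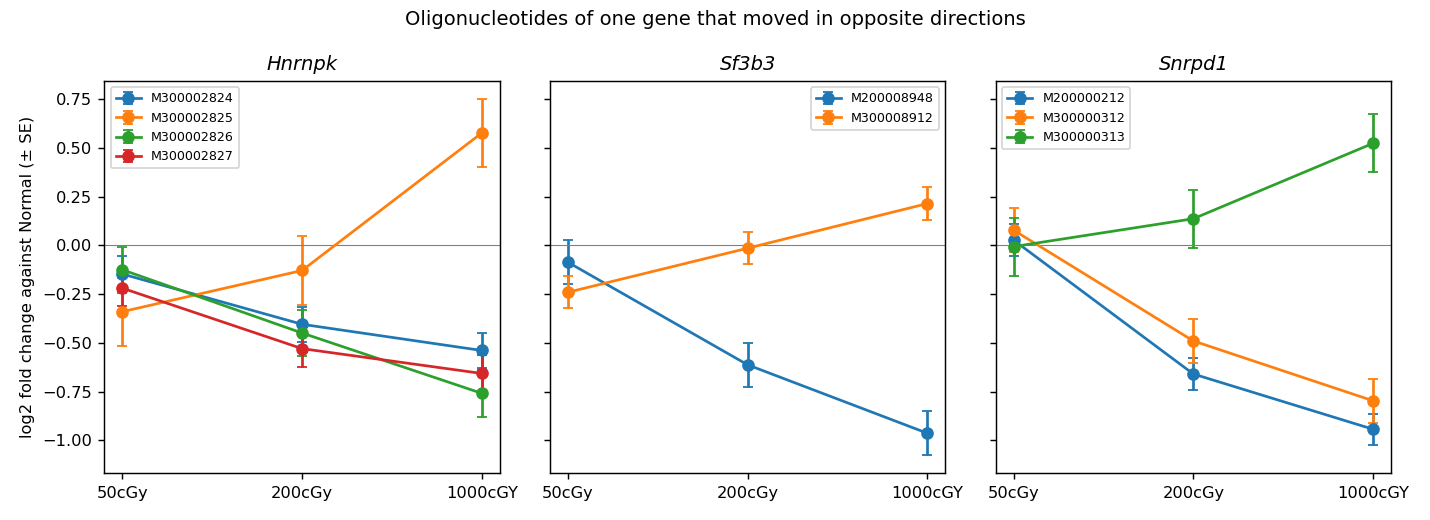
Log2 fold change against Normal (± SE) at each dose for each oligonucleotide of Hnrnpk, Sf3b3 and Snrpd1, named by its identifier. At 1000 cGy 1 oligonucleotide of each gene is above 0 (0.58, 0.21 and 0.52) and the others are below.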

How the data were processed

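RNA of PB MNCs from each mouse (1 array per mouse, 7 mice per group) and a universal mouse reference RNA were hybridized to a 2-colour array of long oligonucleotides. The labels name Cy5 for the sample and Cy3 for the reference on 22 arrays. On 6 of the 1000cGY arrays they name other dyes, which were read as Cy5 and Cy3. Over the probes with a value on every array, these 6 correlated at 0.932 to 0.981 with the remaining 1000cGY array. The labels give that array as Cy5 and Cy3, so the ratios of the 6 run the same way. The authors deposited log2 ratios of sample to reference, taken as the median of ratios of each spot. Spots whose signal fell below 100 in at least 1 channel had been dropped first. The paper states that missing values were then imputed from the average of nearest-neighbour genes. Whether the deposited ratios hold imputed values was not determined, so a value that is present may not be a measured spot. The sources used here do not say how arrays were normalized to each other. No intensities were used, so the number of arrays limits the precision. Of 16722 probes 14 to 439 lacked a value per array, and 4 member values were missing. Names came from the platform annotation (10820 probes with 1 symbol, 232 with several, 5670 with none).

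Each array was centred on its median, probes of 1 symbol were averaged, and the means of the 4 groups were fitted with limma 3.58.1 under R 4.3.3 for the 9076 genes with at least 5 values per group, with Benjamini-Hochberg adjustment and calls at 0.05. P-values measure the spread between mice. The model was tested on simulated data. Named genes were Prpf4b, Hnrnpab, for each dose the 5 largest rises and falls without overlap, the 3 smallest adjusted p in each role group, and exceptions. The members and lists (roles, 7 marker lists, other splicing genes) were chosen with earlier results of these data known. Replicate numbers did not pair the mice: residuals of same-numbered mice correlated at -0.0191 on average over 42 pairs, against 0.00254 for other pairs. Motifs were searched on both strands of RefSeq windows (GRCm38.p6). E-box (CACGTG), NRF1 (GCGCATGC) and ISRE core (GAAANNGAA) letters were in 13.1%, 2.38% and 7.14% of member windows, against 7.24%, 2.8% and 8.57% of all. The alternatives were uncentred arrays, quantile normalization, array weights, robust moderation, a replicate block, 1 probe per gene, the lowest ratio as missing, complete genes, only the groups compared, and each mouse left out.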

Additional observations from a re-analysis of the deposited data

Results flagged for a closer look

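Single mice far from the other 6 of their group were looked for in 41 quantities (the named genes, the group means by role and the mean over all members), 164 groups in all, by the gap to the nearest mouse as a share of the group's range. There were 23, and chance gives about 1 in 20 groups.

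1000cGY replicate 5 gave 9 of them and was on the side of the Normal mice in 8: at -1.72 in Hnrnpab (next mouse -2.03), -0.49 in Hnrnpr (next -1.10), -0.15 in Prpf4b (next -0.49) and -0.91 in Prpf8 (next -1.41). Its means were -0.495 for the hnRNPs, -0.0618 for the other helicases, 0.0304 for the helicases of export, translation and decay and -0.29 over all members (next -0.43). In Dhx40 it was the highest, at 1.92 (next 1.61). In the 28 fits with 1 mouse left out, between 58 and 60 members were called lower at 1000cGY against Normal (25.1% to 27% of all genes).

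50cGy replicate 1 gave 5, at -0.69 in Hnrnpa1, where it was the highest (next -1.03), and as the lowest at -0.40 in Hnrnpa2b1, -1.50 in Hnrnpab, -0.0281 in U2af1 and -0.18 in the mean of the SR proteins. 200cGy replicate 1 was the highest in the mean of the helicases of export, translation and decay (0.10, next -0.18) and in that of the other spliceosome factors (-0.20, next -0.33).

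The other 7 were Ddx54 in 50cGy replicate 3 (-2.20, next 0.17), Hnrnpr in 50cGy replicate 2 (0.27) and 200cGy replicate 6 (-1.07), Prpf4b in 50cGy replicate 5 (0.0225), Srsf10 in 1000cGY replicate 3 (-1.29), Ddx46 in Normal replicate 7 (1.52) and Sf3b5 in Normal replicate 3 (-0.89).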

How the results depend on the processing

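The members' median in 1000cGY and in 200cGy mice against Normal mice was below 0 under every alternative run, but the counts of genes called higher moved with the scaling. Without centring 3 members were higher in 200cGy against Normal (61 lower, median -0.44), 5 in 1000cGY against Normal (67 lower, median -0.76), 3 in 200cGy against 50cGy (63 lower, median -0.44) and 3 in 1000cGY against 200cGy, where 48 were lower (median -0.32). Over all genes the shares higher and lower were then 17.5% and 25.3%, 25.8% and 37.2%, 11.8% and 29.1%, and 10.5% and 20.5%. With quantile normalization 6 members were higher in 1000cGY against Normal (61 lower), 4 in 200cGy against 50cGy and 1 in 1000cGY against 200cGy (27 lower), and all genes gave 29.3% and 29.5%, 15.3% and 23.6%, and 9.49% and 12.2%. At 50 cGy array weights gave 12 members higher and 20 lower (15.5% and 8.89% of all genes). A fit of only the 2 groups gave 8 higher and 17 lower (11.1% and 7.26%). Ddx4 at 1000cGY against Normal was -0.0689 with quantile normalization, and Dhx35 was -0.0024 without centring. The cause was not tested.

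Each mouse was left out in turn over the comparisons 50cGy, 200cGy and 1000cGY against Normal, 200cGy against 50cGy and 1000cGY against 200cGy. In this order the members called higher numbered 4 to 8, 5 to 7, 10 to 13, 6 to 7 and 5 to 11. Those lower numbered 5 to 14, 51 to 57, 58 to 60, 45 to 52 and 20 to 39. Over all genes the shares higher were 5.55% to 8.96%, 22.1% to 24%, 38.1% to 42.1%, 16.7% to 22.6% and 14.1% to 24%. The shares lower were 2.28% to 5.02%, 18.8% to 21%, 25.1% to 27%, 18% to 21.9% and 8.9% to 14.6%. The members' medians ran from -0.11 to -0.07, -0.36 to -0.31, -0.54 to -0.50, -0.34 to -0.28 and -0.21 to -0.16. The lower counts outside 1.5 times the main value were 5 (without Normal replicate 7, 50cGy replicate 6 or 50cGy replicate 7) and 14 (without 1000cGY replicate 5) at 50 cGy, and 20 (without 200cGy replicate 1) at 1000cGY against 200cGy, where 11 were higher without 200cGy replicate 6. The replicate number shared only a number, and with it as a block the counts higher and lower were 6 and 7, 5 and 54, 12 and 59, 7 and 49, and 6 and 30. Over all genes the block gave 7.34% and 3.5%, 23% and 20%, 40.3% and 25.7%, 19.2% and 20.3%, and 19.3% and 11.5%. Of 670 values of the 33 named genes, 653 kept their direction and side of the threshold, 15 fell short of it and 2 changed sign.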
